A study of Sus scrofa with 7 samples.

Results

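The cytosolic ribosomal protein genes code for the proteins of the ribosome outside mitochondria. They were taken as every gene symbol beginning with RPL or RPS and a number, with RPLP0, RPLP1, RPLP2 and RPSA, leaving out the S6 kinases and symbols ending in L or L1. Of 20653 genes in the table, 77 met this rule, and all 77 were among the 15661 genes tested, for which 3 or more libraries had to reach 10 normalized counts. They comprise 45 proteins of the large subunit, 31 of the small subunit, and RPS19BP1, which binds the small subunit protein RPS19 and is not itself a ribosomal protein. The ribosomal protein encoded by FAU, which is made as a fusion to a ubiquitin-like protein, and the ribosome-bound scaffold RACK1 fall outside the rule by their names and are given beside it.

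A ribosome holds a single copy of nearly every one of these proteins, bound to ribosomal RNA, and cells make the proteins in matching amounts. Their mRNAs begin with a terminal oligopyrimidine (TOP) tract, through which the kinase mTOR and the RNA-binding protein LARP1 control their translation together. In the heart, ribosome number rises when muscle cells grow under load, and striated muscle has a large subunit protein of its own, RPL3L, in place of RPL3.

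RNA was sequenced from anteromidventricular myocardium of male farm pigs, 14 weeks after infarction of muscle fed by the left circumflex artery. All animals had received adeno-associated virus of serotype 5. In the S100a1 group (4 libraries) it carried the human gene for S100A1, which binds calcium in heart muscle cells, and in the hrLuc group (3 libraries) it carried the reporter enzyme luciferase. Each title names a separate pig, the labels give no batch, and the libraries were made from total RNA after ribosomal RNA had been depleted.

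The 7 libraries held 28679324 to 38409552 reads with 1 transcript row kept per gene. Markers of cardiomyocytes were abundant in every library, at a summed 4374940 to 4964042 normalized counts in hrLuc and 4524982 to 5826677 in S100a1. The pig S100A1 gene, which overlaps S100A13, was at 7461, 6568 and 9125 normalized counts in hrLuc and at 5950, 6804, 6548 and 4429 in S100a1. This is a log2 fold change of -0.39 (limma, adjusted p = 0.577). The sources used here do not give whether reads of the human vector sequence were counted there. In bulk tissue, fewer cells of a type and less RNA per cell cannot be told apart.

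The ribosomal protein genes differed little between the groups. Their normalized counts, which are reads divided by a size factor for each library, summed to 339226, 320624 and 396730 in the hrLuc hearts, listed by replicate number here and in what follows. In the S100a1 hearts they summed to 337277, 387034, 356382 and 347152. The 2 groups overlapped. The mean sum of the 3 hrLuc hearts was 352193 with an SD of 39675, that of the 4 S100a1 hearts was 356961 with an SD of 21513, and their ratio was 1.01. The highest library stood 1.24 times above the lowest. As a share of reads, the genes took a mean of 1.10% in hrLuc, with an SD of 0.11, and the same mean in S100a1, with an SD of 0.086.

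Fold changes are S100a1 over hrLuc on the log2(value + 0.5) scale, tested with limma and adjusted by Benjamini-Hochberg over all 15661 genes, with a threshold of 0.05. No ribosomal protein gene passed it, 0 of 77, where 2 of all tested genes (0.0128%) did. At an unadjusted p under 0.05 there were again 0 of 77, against 8.26% of all tested genes. On reads recovered from the normalized values, edgeR called 0 of 77 with 1 at an unadjusted p under 0.05 (RPL36A), and DESeq2 called 0 with 0 unadjusted. Among all tested genes, edgeR called 0.0128% (8.51% unadjusted) and DESeq2 0.568% (8.66% unadjusted). In the authors' deposited table, 0 of 140 transcript rows of these genes had an adjusted p under 0.05 and the lowest was 0.617, where 0.927% of all rows with a value had one.

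The fold changes were also narrow in size. Of the 77 genes, 69 lay within 0.1 of 0 on the log2 scale, where 45.9% of all tested genes did. That comparison was not matched for level, and 73 of the 77 had a mean above 1000 normalized counts. Nor are the 77 genes separate observations, since in 64 of them the same 2 hearts, hrLuc replicate 3 and S100a1 replicate 2, stood above the other 5. Every 95% interval of the 77 contained 0. In 66 genes the whole interval lay within a 1.25-fold change in either direction and in 75 within 1.5-fold. The other 2 genes, RPL36A and RPS21, had intervals within 2-fold. Over the 77 genes the interval bounds ran from 0.801-fold to 1.99-fold, and the median distance from the estimate to its bound was 0.21 on the log2 scale.

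The median log2 fold change was 0.03 over the 77 genes, 0.01 over the large subunit and 0.04 over the small subunit, beside -0.02 over all tested genes. A positive fold change was found in 51 of 77 genes, 27 of 45 in the large and 23 of 31 in the small subunit, beside 43.5% of all tested genes. That count depended on how the libraries were scaled. It was 73 with libraries centred on their medians (56.4% of all tested genes), 75 with the trend on gene length removed (48.7%) and 66 with edgeR (49.7%) and with DESeq2 (49.2%). It was 40 after removing 3 genes above 1% of the reads and rescaling libraries to their remaining read totals (37.9%). It was also 40 after centring on the ribosomal protein genes (38.1%), where their own medians build in a near-even split. It also depended on single hearts, falling to 18 without hrLuc replicate 2 (42.8% of all tested genes) and to 33 without S100a1 replicate 2 (42.8%), and reaching 76 without hrLuc replicate 3 (45.7%). The median ran from -0.04 to 0.11 over those omissions, so the sign for the genes as a whole changed with the heart left out.

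**Figure D1:**
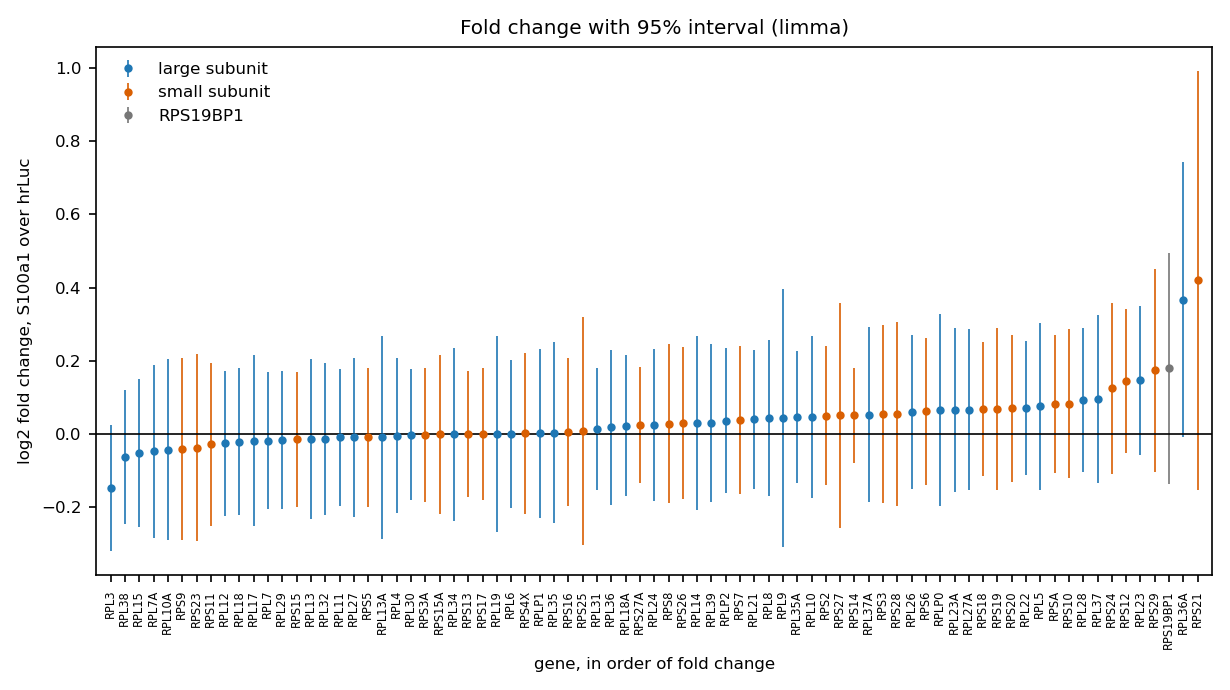
Log2 fold change of S100a1 over hrLuc (vertical axis) for the 77 genes in order of size (horizontal axis), with points for the limma estimate and bars for its 95% interval, coloured by subunit. Every bar crosses 0, and only RPL36A and RPS21 have bars that reach beyond a 1.5-fold change.

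The genes moved together from heart to heart far more than between the groups. As the median over the 77 genes of the log2 deviation from each gene's own mean, the hrLuc hearts stood at -0.06, -0.14 and 0.16. The S100a1 hearts stood at -0.08, 0.13, 0.02 and -0.02. So 1 heart of each group, hrLuc replicate 3 and S100a1 replicate 2, was high, hrLuc replicate 2 was low, and the groups overlapped. The distance from the lowest to the highest library was 0.31, or 1.24-fold. Both subunits showed the same order of the extreme libraries, with hrLuc replicate 3 at 0.17 for the large and 0.15 for the small subunit and hrLuc replicate 2 at -0.14 and -0.15.

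Gene by gene, hrLuc replicate 3 had the highest level of the 7 libraries in 47 of the 77 genes (19.1% of all tested genes) and S100a1 replicate 2 in 27 (14.9%). The lowest level fell in hrLuc replicate 2 in 46 genes (14% of all tested genes), in S100a1 replicate 1 in 15 (24.1%) in hrLuc replicate 1 in 11 (13.1%), in S100a1 replicate 4 in 3 (13.8%) and in S100a1 replicate 3 in 2 (9.16%). In 64 of the 77 genes both of the high libraries stood above the other 5, against 8.58% of all tested genes. S100a1 replicate 2 was above the gene's own mean in all 77. These libraries were singled out after their values were seen, so the counts are a description without a test.

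The 13 genes without this order were RPL3, RPL9, RPL19, RPL21, RPL31, RPL36A, RPL37, RPS14, RPS21, RPS24, RPS27, RPS29 and RPS19BP1. Of the 77, only 3 were highest in another library: RPS14 in S100a1 replicate 4 (9.46% of all tested genes), RPS19BP1 in S100a1 replicate 1 (17.2%) and RPS27 in S100a1 replicate 3 (8.15%). RPS27, a zinc-binding small subunit protein, was at 948, 902 and 1143 normalized counts in hrLuc and at 824, 1035, 1197 and 1096 in S100a1. Its groups overlapped, with the lowest and the highest heart both in S100a1, at a log2 fold change of 0.05.

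**Figure D2:**
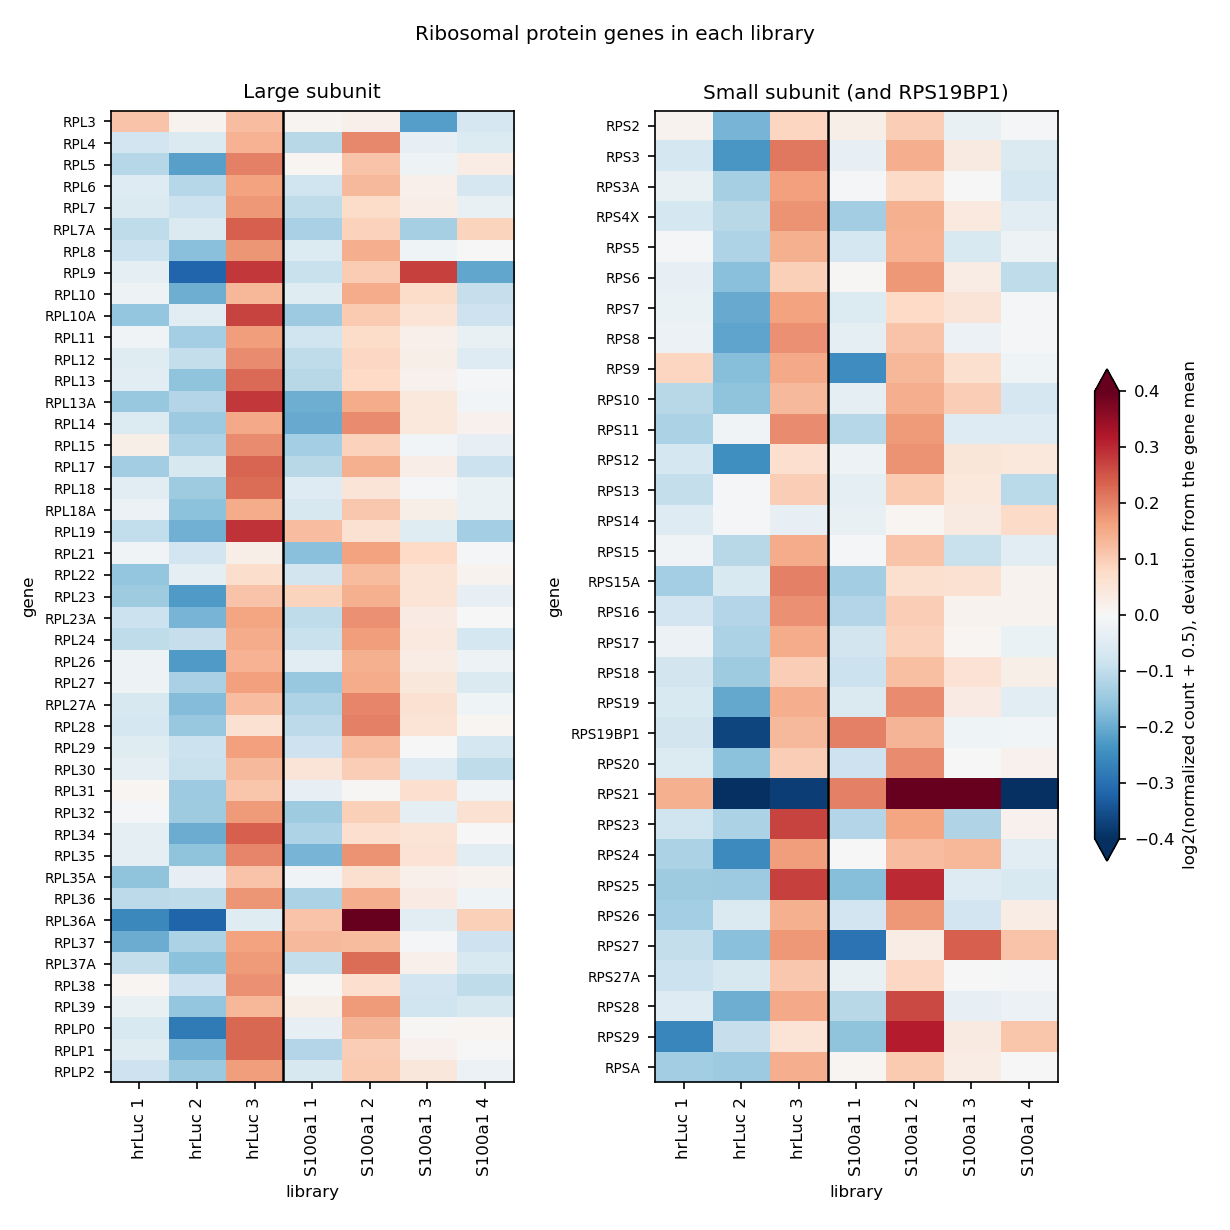
Log2 deviation of each gene from its own mean over the 7 libraries (colour, red above and blue below, limited to 0.4 in either direction), with genes in rows and libraries in columns, hrLuc left and S100a1 right of the black line. The columns of hrLuc replicate 3 and S100a1 replicate 2 are red and that of hrLuc replicate 2 is blue for most genes, while RPS21, RPS14 and RPL3 depart from the rest.

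When each library was set to its own median over the 77 genes, the spread between hearts fell. The medians came from these same genes, so a fall was in part built into the step. The spread of all tested genes after it is not given for comparison. The within-group SD, as the median over genes, was 0.13 on the log2 scale before and 0.06 after, where all tested genes had 0.16 before it. On this relative scale 6 of the 77 genes had groups apart, beside 7.24% of all tested genes. Levels were higher in S100a1 in 4 (RPL23, RPL36A, RPS12 and RPS18), beside 1.72% of all tested genes, and lower in 2 (RPL15 and RPL29), beside 5.52%. The differences were 0.12 for RPL23, 0.34 for RPL36A, 0.12 for RPS12, 0.04 for RPS18, -0.07 for RPL15 and -0.04 for RPL29. In limma on this scale, 0 of the 77 passed the threshold, 0 had an unadjusted p under 0.05, and the smallest adjusted p was 0.770. RPS18 and RPL29 lie over VPS52 and ACY1 in the annotation and were not among the genes selected by the naming rule.

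Other genes shared the order of the libraries in part. Translation factors with TOP mRNAs, a list that holds EEF1A1, EEF2 and PABPC1, stood at -0.05, -0.13 and 0.15 in hrLuc and at -0.15, 0.10, 0.06 and 0.02 in S100a1. Mitochondrial ribosomal proteins, whose mRNAs are read by the cytosolic ribosome but have another control, stood at -0.02, -0.07 and 0.10 in hrLuc and at -0.04, 0.08, 0.05 and -0.11 in S100a1. Both lists were highest in hrLuc replicate 3 with S100a1 replicate 2 next, and their lowest libraries were in S100a1.

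Gene length, depth and tissue makeup varied across the same libraries. The ribosomal protein genes are short, with 73 of 77 under the first quartile of genomic span (10433 bases) and a median span of 3905 bases against 27061 over all tested genes. The other 3843 genes under that quartile stood at 0.04, -0.03 and 0.10 in hrLuc and at -0.08 to 0.03 in S100a1, also highest in hrLuc replicate 3. The 2 high libraries were those with the fewest reads, 28679324 and 29002003, and the low hrLuc replicate 2 came next with 30073332. Their part in the pattern was not tested.

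Cardiomyocyte markers stood at -0.12, -0.09 and 0.11 in hrLuc and at 0.13, 0.08, 0.01 and -0.08 in S100a1. As for the ribosomal protein genes, hrLuc replicate 3 and S100a1 replicate 2 were high and hrLuc replicates 1 and 2 low, but S100a1 replicate 1 was the highest. Fibroblast markers were highest in hrLuc replicate 1 (0.32) and lowest in S100a1 replicate 1 (-0.51), and summed to 132324 to 153641 normalized counts in hrLuc and 85534 to 137758 in S100a1. Smooth muscle and pericyte markers ran from -0.41 in S100a1 replicate 4 to 0.39 in hrLuc replicate 1. T and natural killer cell markers were highest in hrLuc replicate 1 (1.07), with summed levels of 367 to 795 in hrLuc and 332 to 442 in S100a1. The part of these cell types was not tested either.

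**Figure D3:**
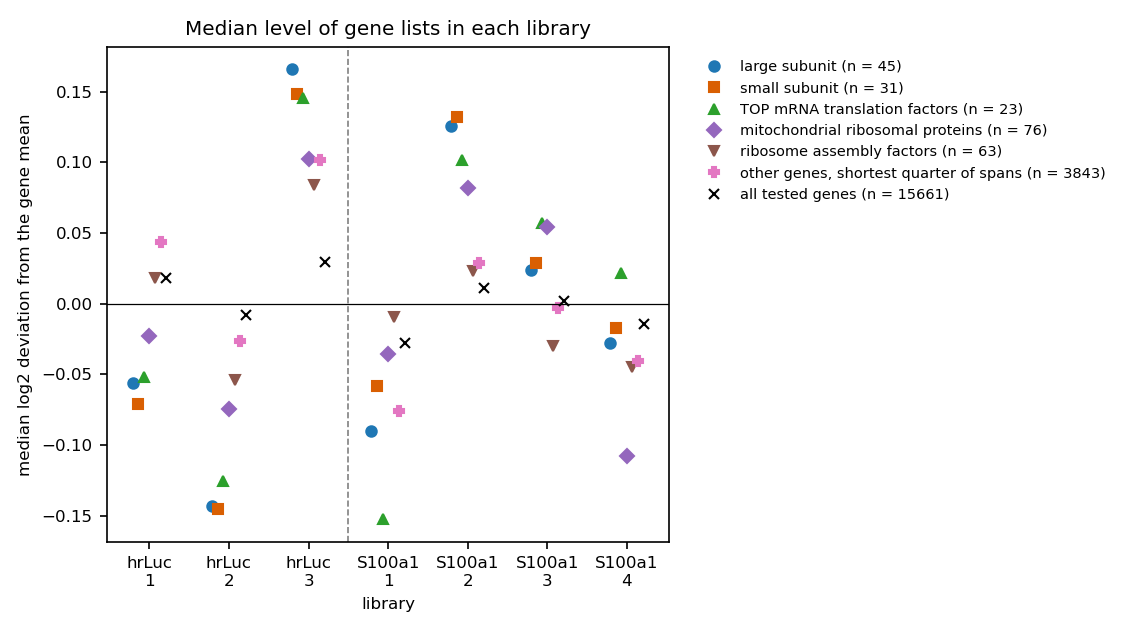
Median log2 deviation from the gene mean (vertical axis) in each of the 7 libraries (horizontal axis), with hrLuc left and S100a1 right of the dashed line, 1 symbol per gene list. Both subunits are at 0.15 to 0.17 in hrLuc replicate 3 and at -0.14 to -0.15 in hrLuc replicate 2, while all tested genes stay within 0.03 of 0.

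Most genes named from here on were chosen by a rule on p, range and role, and RPL4, RPL5, RPL10, RPL11, RPL13A, RPL39, RPS4X, RPS6, RPS18 and RPS19 were added after values had been seen. Among large subunit proteins, RPL36A had the smallest p of the 77. Its gene is on the X chromosome (Sscrofa11.1, X, 83018305 to 83022285), and its protein lies near the exit site of transfer RNA. RPL36A was at 89.4, 85.5 and 103 normalized counts in hrLuc and at 116, 148, 104 and 114 in S100a1, so the groups did not overlap, although the highest hrLuc and the lowest S100a1 library were almost level. The log2 fold change was 0.37 ± 0.17 (SE, limma, p = 0.0545, adjusted p = 0.608), and the exact two-sided permutation p was 0.0571. RPL36A was the 1 gene of the 77 whose groups did not overlap with S100a1 higher, beside 3.96% of all tested genes, and 0 did so with S100a1 lower, beside 5.31% (9.27% in either direction). It was also the gene with the fewest reads, with a mean of 109 normalized counts where 73 of the 77 had more than 1000.

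The other X-linked genes did not share that difference. RPL10, which joins the large subunit in a late step of its assembly, was at 14288, 12644 and 15882 normalized counts in hrLuc and at 14001, 16048, 15225 and 13598 in S100a1, a log2 fold change of 0.05. RPS4X was at 10545, 10252 and 12538 in hrLuc and at 10066, 12233, 11382 and 10759 in S100a1, a log2 fold change of 0.0019. For RPL39, at the exit tunnel of the large subunit, the log2 fold change was 0.03. In RPL10 and RPS4X the groups overlapped, and both genes followed the common order of libraries, with hrLuc replicate 3 and S100a1 replicate 2 high.

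RPL23, which can bind the p53 regulator MDM2 when it is free of the ribosome, was at 3800, 3586 and 4536 normalized counts in hrLuc and at 4462, 4621, 4355 and 4094 in S100a1. The first 2 hrLuc hearts were below every S100a1 heart and hrLuc replicate 3 lay among them. The log2 fold change was 0.15 ± 0.09 (SE, limma, adjusted p = 0.656), and leaving out hrLuc replicate 2 gave 0.077, leaving out hrLuc replicate 3 gave 0.25. RPL5 and RPL11, which carry the 5S ribosomal RNA and also bind MDM2, were looked at for that role. Their log2 fold changes were 0.08 and -0.0091.

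RPL3, which reaches to the site of peptide bond formation, had the most negative fold change of the 77. It was at 2869, 2673 and 2886 normalized counts in hrLuc and at 2671, 2687, 2276 and 2529 in S100a1. S100a1 replicates 1, 3 and 4 were below all hrLuc hearts, replicate 1 only barely, and replicate 2 was just above the lowest hrLuc heart. The log2 fold change was -0.15 ± 0.08 (SE, limma, p = 0.0859, adjusted p = 0.632; exact permutation p = 0.143), and it ran from -0.18 to -0.10 with each library left out.

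The next most negative large subunit genes were close to 0. RPL38, which in mice is needed for translation of certain Hox mRNAs, was at 2551, 2399 and 2882 normalized counts in hrLuc and at 2549, 2660, 2410 and 2366 in S100a1. RPL15, a gene mutated in some cases of Diamond-Blackfan anaemia, was at 6577, 5939 and 7372 in hrLuc and at 5890, 6893, 6427 and 6322 in S100a1. Their log2 fold changes were -0.06 ± 0.08 and -0.05 ± 0.09 (SE), and in both the highest heart was hrLuc replicate 3 and the groups overlapped. RPL7A, which overlaps MED22, was at 7621, 7861 and 9660 in hrLuc and at 7475, 8726, 7462 and 8691 in S100a1. RPL10A, of the mobile stalk at the exit site, was at 4912, 5316 and 6596 in hrLuc and at 4947, 5880, 5681 and 5162 in S100a1. Both had a log2 fold change between -0.05 and -0.04 and overlapping groups, with the highest heart again hrLuc replicate 3. Without hrLuc replicate 3 the fold changes of all 4 genes were positive, at 0.01 for RPL38, 0.03 for RPL15, 0.06 for RPL7A and 0.08 for RPL10A.

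RPL9, at the base of the stalk where elongation factors bind, had the widest range of the large subunit after RPL36A. It was at 1499, 1236 and 1877 normalized counts in hrLuc and at 1448, 1654, 1862 and 1335 in S100a1. High and low hearts stood in both groups, and the log2 fold change was 0.04 ± 0.16 (SE). RPL9 overlaps KLB in the annotation.

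The acidic stalk of the large subunit, which recruits elongation factors, is built from RPLP0 with pairs of RPLP1 and RPLP2. RPLP0 was at 14012, 12010 and 17125 normalized counts in hrLuc and at 14267, 16037, 14653 and 14677 in S100a1. RPLP1 was at 3140, 2850 and 3807 in hrLuc and at 2991, 3477, 3286 and 3249 in S100a1. RPLP2 was at 2616, 2497 and 3108 in hrLuc and at 2649, 2979, 2858 and 2721 in S100a1. In all 3 genes hrLuc replicate 2 was lowest, hrLuc replicate 3 highest, and every S100a1 heart lay between. The log2 fold changes were 0.07, 0.0019 and 0.04.

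RPL13A, often used as a reference gene in PCR and known for release from the ribosome under interferon, had 14 transcript rows, the most that had to be reduced to 1. The row kept was at 7569, 7741 and 10221 normalized counts in hrLuc and at 7336, 9315, 8654 and 8338 in S100a1, a log2 fold change of -0.0084. A minor transcript row was at 299, 265 and 212 in hrLuc and at 249, 197, 250 and 289 in S100a1. So the hearts with the highest level of the main row, hrLuc replicate 3 and S100a1 replicate 2, had the lowest of the minor row. RPL4 and RPS18, also used as reference genes, had log2 fold changes of -0.0037 and 0.07.

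Among small subunit proteins, RPS12, of the beak of the subunit, had the smallest p. It was at 3998, 3548 and 4402 normalized counts in hrLuc and at 4141, 4760, 4341 and 4328 in S100a1. Hearts hrLuc 1 and 2 were below all S100a1 hearts and hrLuc 3 was above 3 of them. The log2 fold change was 0.14 ± 0.09 (SE, limma, adjusted p = 0.651), and leaving out hrLuc replicate 2 gave 0.064, leaving out hrLuc replicate 3 gave 0.22.

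RPS21 had the largest fold change and the widest range, on few reads. It was at 205, 133 and 143 normalized counts in hrLuc and at 214, 268, 252 and 136 in S100a1, with S100a1 replicate 4 near the 2 lowest hrLuc hearts. The log2 fold change was 0.42 ± 0.25 (SE, limma, adjusted p = 0.653), and it ran from 0.30 without hrLuc replicate 2 to 0.63 without S100a1 replicate 4. A second locus annotated as 40S ribosomal protein S21, LOC100518848, held more reads. It was at 1500, 1224 and 1628 in hrLuc and at 1449, 1676, 1777 and 1465 in S100a1, a log2 fold change of 0.14. Near-identical loci can share reads, so the level of either S21 locus is uncertain.

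RPS29, a small zinc-binding protein of the subunit head, was at 723, 813 and 901 normalized counts in hrLuc and at 775, 1077, 888 and 936 in S100a1. The groups overlapped, and the log2 fold change was 0.17 ± 0.12 (SE), or 0.093 without hrLuc replicate 1 and 0.25 without S100a1 replicate 1. RPS14, a protein of the platform known from its loss in a form of myelodysplasia, varied least of the 77. It was at 3377, 3482 and 3423 in hrLuc and at 3429, 3517, 3586 and 3688 in S100a1. The order of the other genes was missing here, since hrLuc replicate 3 stood below hrLuc replicate 2, and the log2 fold change was 0.05 ± 0.06 (SE). RPS14 overlaps NDST1 in the annotation.

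RPS27A, which is made as a fusion to ubiquitin, and RPS13 also varied little. RPS27A was at 4881, 4952 and 5585 normalized counts in hrLuc and at 5072, 5486, 5182 and 5149 in S100a1. RPS13 was at 3540, 3773 and 4052 in hrLuc and at 3683, 4068, 3894 and 3507 in S100a1. In both genes the groups overlapped over their full width, at log2 fold changes of 0.03 and -0.00019.

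RPSA, which doubles as a laminin receptor at the cell surface, was at 3785, 3767 and 4609 normalized counts in hrLuc and at 4190, 4482, 4253 and 4174 in S100a1. All 4 S100a1 hearts lay between the lower pair and the highest of hrLuc, with a log2 fold change of 0.08 ± 0.08 (SE), or 0.033 without hrLuc replicate 2 and 0.18 without hrLuc replicate 3. RPS6, the substrate of the S6 kinases, and RPS19, the gene most often mutated in Diamond-Blackfan anaemia, were looked at for those roles. Their log2 fold changes were 0.06 and 0.07, with overlapping groups in both. RPS19BP1, the RPS19-binding protein that the rule takes in by its name, was at 226, 184 and 260 in hrLuc and at 273, 261, 235 and 236 in S100a1. Its groups overlapped, at a log2 fold change of 0.18 ± 0.14 (SE).

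**Figure D4:**
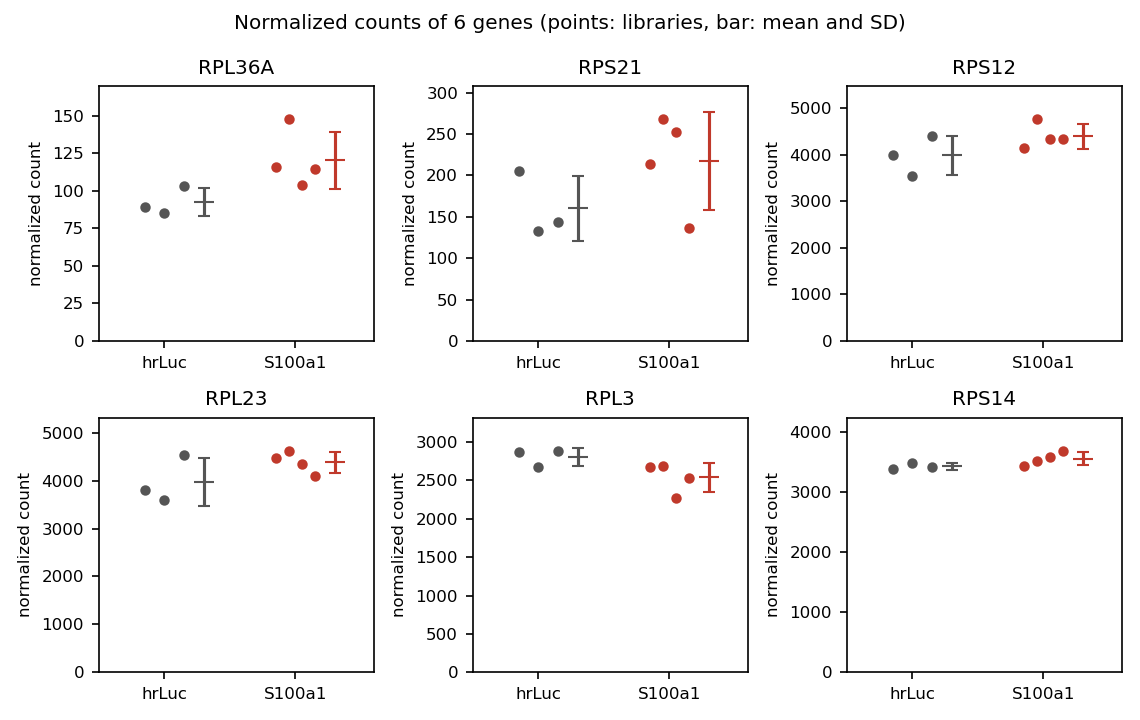
Normalized counts (vertical axes, each from 0) of RPL36A, RPS21, RPS12, RPL23, RPL3 and RPS14 in the hrLuc and S100a1 groups, with points for libraries and a bar for mean and SD. The groups are apart only for RPL36A, and RPS14 stays between 3377 and 3688 in all 7 libraries.

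Of the ribosome-associated proteins outside the rule, FAU, which encodes small subunit protein S30, was at 744, 795 and 980 normalized counts in hrLuc and at 791, 1055, 932 and 814 in S100a1, a log2 fold change of 0.10. RACK1 had a log2 fold change of 0.03. In FAU the groups overlapped, and S100a1 replicate 2 and hrLuc replicate 3 were again the 2 highest hearts.

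Loci annotated as ribosomal proteins but carrying no symbol numbered 37, and 18 of them had enough reads. Of these 0 passed the threshold in limma, 1 had an unadjusted p under 0.05 (8.26% of all tested genes), and their median log2 fold change was 0.07. The 1 locus, LOC106509418, is described as 40S ribosomal protein S4, X isoform-like, and was picked for its p. It was at 394, 260 and 309 normalized counts in hrLuc and at 502, 412, 438 and 413 in S100a1. Every S100a1 heart was above every hrLuc heart, as in 3.96% of all tested genes. The log2 fold change was 0.48 ± 0.15 (SE, limma, adjusted p = 0.535; exact permutation p = 0.0286). RPS4X itself, with many more reads, did not differ in this way, and reads shared by the 2 loci cannot be told apart.

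Several ribosomal proteins have paralogs that the rule leaves out, and the ratio of paralog to partner was compared between groups for 6 pairs, after the values of the genes had been seen. The ratios are of normalized counts without a correction for length, so only their difference between groups is read. RPL3L, the form of striated muscle, was at 4447, 3684 and 4482 normalized counts in hrLuc and at 4735, 4801, 4502 and 4401 in S100a1, a log2 fold change of 0.14 (limma, adjusted p = 0.654). The groups overlapped for RPL3L alone, as they did for RPL3 alone.

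Their ratio did not overlap. RPL3L over RPL3 was 1.55, 1.38 and 1.55 in hrLuc and 1.77, 1.79, 1.98 and 1.74 in S100a1, with means of 1.49 and 1.82 and SDs of 0.10 and 0.11. The difference was 0.28 on the log2 scale, or 1.22-fold, and ran from 0.23 to 0.31 with each library left out. It was 0.31 with the lowest or the middle transcript row of each gene in place of the highest. The exact two-sided permutation p was 0.0286, the smallest that 3 against 4 hearts allow. After Benjamini-Hochberg adjustment over the 6 pairs it was 0.0857 and did not pass the threshold. With this floor, the threshold could be passed only if most of the 6 pairs reached the smallest p, so the failure says little. Of all other tested genes, 12% had a ratio to RPL3 that was higher in every S100a1 heart than in every hrLuc heart. RPL3L overlaps NDUFB10 in the annotation, and close paralogs can share reads.

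RPL7L1 over RPL7 was also apart, in the other direction. The ratio was 0.0858, 0.0792 and 0.0898 in hrLuc and 0.0771, 0.0752, 0.0757 and 0.0769 in S100a1, a log2 difference of -0.15 (exact permutation p = 0.0286, adjusted over the 6 pairs 0.0857). The 4 S100a1 hearts lay below all 3 hrLuc hearts, beside 3.03% of all other tested genes set over RPL7 in that direction. RPL7L1 by itself, a protein of ribosome assembly, was at 611, 552 and 750 normalized counts in hrLuc and at 532, 586, 571 and 558 in S100a1, with a log2 fold change of -0.17 and overlapping groups.

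In the other 4 pairs the groups overlapped. The log2 differences were -0.27 for RPL36AL over RPL36A (exact permutation p = 0.114), -0.15 for RPL26L1 over RPL26 (exact p = 0.2), -0.10 for RPL22L1 over RPL22 (exact p = 0.486) and 0.15 for RPS27L over RPS27 (exact p = 0.543). RPS27L, a p53 target, had a log2 fold change of 0.20 by itself. RPL10L, a testis form, was at 0 to 1 read in each heart and was not tested.

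**Figure D5:**
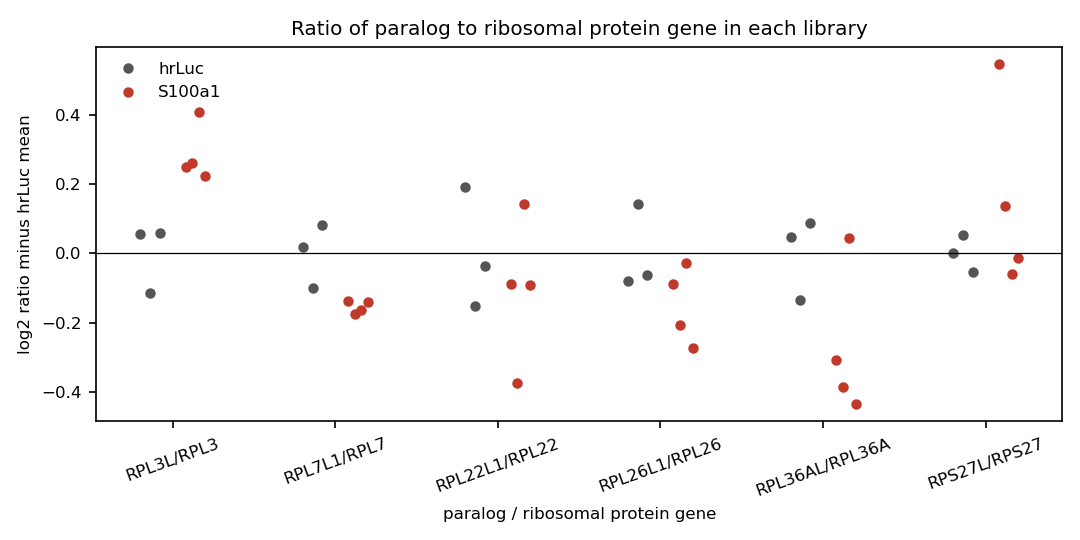
Log2 ratio of paralog to ribosomal protein gene minus the hrLuc mean (vertical axis) for 6 pairs (horizontal axis), with 1 point per library, grey for hrLuc and red for S100a1. The groups are apart for RPL3L over RPL3, where S100a1 is higher, and for RPL7L1 over RPL7, where it is lower.

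Genes that build, feed and control the ribosome were read from the same fit, and 0 of any list passed the threshold in limma, where 0.0128% of all tested genes did. Of 23 translation factors with TOP mRNAs, 15 had a positive fold change, with a median of 0.02. EEF1A1 and EEF2, which bring transfer RNA to the ribosome and move it along, had log2 fold changes of 0.02 and -0.02. NACA, which meets new chains at the exit tunnel, had the smallest p of the list, at 14225, 14447 and 17425 normalized counts in hrLuc and 15632, 17948, 17862 and 18799 in S100a1, a log2 fold change of 0.20. PABPC1 and the filament protein VIM, both in this list, had -0.17.

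The 16 genes of RNA polymerase I transcription had a median of -0.0092. MYC, a transcription factor that drives ribosome synthesis, was at 206, 169 and 237 normalized counts in hrLuc and at 307, 307, 245 and 333 in S100a1, so its groups did not overlap. Its log2 fold change was 0.55 ± 0.15 (SE, limma, adjusted p = 0.515; exact permutation p = 0.0571). Groups were apart with S100a1 higher in 3.96% of all tested genes. POLR1G and TAF1A, both of the polymerase I machinery, had log2 fold changes of -0.24 and 0.12.

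Of 63 assembly factors, 24 had a positive and 39 a negative fold change, with a median of -0.03 and 2 at an unadjusted p under 0.05, both lower, a smaller share than the 8.26% of all tested genes. NOL6, of the early small subunit precursor, was at 231, 236 and 256 in hrLuc and at 193, 187, 185 and 200 in S100a1, a log2 fold change of -0.33 ± 0.10 (SE, limma, adjusted p = 0.535). All 4 S100a1 hearts were below the hrLuc hearts, as in 5.31% of all tested genes. TSR1, of the late small subunit precursor, and RSL24D1, of the large subunit precursor, had log2 fold changes of -0.29 and -0.26 with overlapping groups.

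The mTOR and LARP1 list, which controls translation of TOP mRNAs, had 9 positive and 19 negative fold changes among 28 genes and a median of -0.05. MTOR was at 4434, 4105 and 4591 normalized counts in hrLuc and at 4077, 3902, 4100 and 4128 in S100a1, a log2 fold change of -0.11, and LARP1 had -0.09. The 3 genes of smallest p were SESN1 (0.18), an inhibitor of mTOR complex 1, RPS6KA1 (-0.37), a kinase of ribosomal protein S6, and RICTOR (0.23), of mTOR complex 2. In MTOR, S100a1 replicate 4 alone was above the lowest hrLuc heart.

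Cap-binding and initiation factors had 6 positive and 20 negative fold changes among the 26 tested of 29 listed. Their median was -0.08, beside -0.02 over all tested genes. S100a1 replicate 1 was lowest in 17 of the 26 genes (24.1% of all tested genes). The median deviation of the list was 0.05, -0.03 and 0.11 in hrLuc and -0.14, 0.06, -0.02 and -0.06 in S100a1. The part of single hearts in the median of this list was not tested. EIF4G2, which serves initiation without the cap, was at 21507, 19031 and 19992 normalized counts in hrLuc and at 14744, 16715, 17345 and 16908 in S100a1, a log2 fold change of -0.30 ± 0.08 (SE, limma, adjusted p = 0.518; exact permutation p = 0.0286). EIF5, which completes start codon selection, was at 5517, 5760 and 5881 in hrLuc and at 4162, 5384, 4781 and 5075 in S100a1, a log2 fold change of -0.24 ± 0.09 (SE, limma, adjusted p = 0.557). In both, which were picked for their small p, all S100a1 hearts were below all hrLuc hearts, as in 5.31% of all tested genes. EIF3D, a cap-binding subunit of the eIF3 complex, had -0.18.

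Ribosome quality control had 9 positive and 6 negative fold changes among 15 genes, with a median of 0.03. PELO, which splits stalled ribosomes, was at 1374, 1451 and 1403 normalized counts in hrLuc and at 1188, 1224, 1242 and 1294 in S100a1, a log2 fold change of -0.19 ± 0.06 (SE, limma, adjusted p = 0.541). NEMF, which handles the large subunit after splitting, was at 1514, 1618 and 1594 in hrLuc and at 1761, 1782, 1662 and 1697 in S100a1, a log2 fold change of 0.13 ± 0.06 (SE, limma, adjusted p = 0.614). The groups did not overlap in either gene, with S100a1 lower for PELO (5.31% of all tested genes) and higher for NEMF (3.96%). Both were picked for their small p. DENR, which recycles the small subunit, had 0.17. Mitochondrial ribosomal proteins had 33 positive and 43 negative fold changes among 76 genes and a median of -0.02. Small nucleolar RNA host genes were not analysed here.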

How the data were processed

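RNA sequencing was analysed for 3 hrLuc and 4 S100a1 libraries, grouped by their labels. The deposited values are a signal: the authors scaled the count of every transcript by a library's size factor. Dividing it out again gave whole reads for 100% of values, within 0.01 read. The deposited log2 fold change, its linear ratio and an adjusted p-value are the authors' own. The submitters' processing notes list DESeq2 1.33.1, FastQC 0.11.8 and R 4.1.2 with the build Sscrofa11.1. Aligner, counting program, strand and treatment of shared reads: not given in the sources used here.

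Per gene, the transcript row with the highest mean was kept, genes were kept at 10 normalized counts in 3 libraries, and log2(value + 0.5) was modelled in limma 3.58.1 under R 4.3.3, with a trended prior variance, two-sided and without covariates, with 5 residual and 3.84 prior degrees of freedom. The branch for normalized values was used because the file holds no raw counts. Such a fold change understates that of genes with few reads. Positions, spans and overlaps came from RefSeq on Sscrofa11.1, matched for 63562 of 63562 rows. Of the 77 genes, 13 overlap another gene. 95% intervals are limma's. Ratios of paralogs were compared by exact permutation over 35 splits. As alternatives edgeR 4.0.16 and DESeq2 1.42.0 were run on recovered reads, with other scalings, filters, pseudocounts (1 and 5), transcript rows, a replicate block, and each library left out. Centring on the ribosomal protein genes and the ratio alternatives were added after seeing the data.

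Members, lists and rules were chosen with earlier results of these data known. Named genes are the 5 of smallest p in each direction, the 3 of largest and smallest range, RPSA, RPLP0, RPLP1, RPLP2 and RPS27A, the paralogs, FAU and RACK1, and up to 3 genes of smallest p per list. A part of the rule on level per length could not be applied, so levels of different genes are not compared. Cell type lists beside those reported are endothelial, B and plasma, macrophage, mast, adipocyte, erythroid and Schwann, with 0 genes past the threshold in limma in each.

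On simulated counts for this comparison over 15661 genes (3 draws), limma recovered 3.33% of genes changed 1.25-fold, 31.3% at 1.5-fold and 72.7% at 2-fold, and 6.22% of its calls were false. Of DESeq2's calls 26.5% were false.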

Additional observations from a re-analysis of the deposited data

How the results depend on the processing

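No ribosomal protein gene passed the threshold under any alternative run, with the smallest adjusted p of the 77 between 0.502 and 0.926. The count of all tested genes past the threshold, 2 with limma, was 1 with median centring, 0 when centred on the ribosomal protein genes, 89 with DESeq2, and 0 to 3 with each library left out. The count of positive ribosomal protein genes ran from 18 to 76 with each library left out. Replicate numbers are shared by the groups, and the deviations of same-numbered hearts had correlations of -0.02, -0.07 and 0.08. Differently numbered hearts ran from -0.16 to 0.19. With 3 and 4 hearts this shows no pairing by number but cannot exclude it. With the replicate block, which drops S100a1 replicate 4, 0 of all genes and 0 of the 77 passed, 58 of the 77 were positive, and RPS13 was at 0.036. The sign of RPS13 turned with median centring (0.047), removal of the gene span trend (0.061), edgeR (0.021) and DESeq2 (0.020). RPL15 (0.010), RPL7A (0.014) and RPL10A (0.019) turned positive with the span trend removed, and RPL10A (0.0050) with median centring. Without genes above 1% of the reads, and with libraries rescaled to their remaining read totals, RPLP1 turned to -0.022. It was also at -0.022 when centred on the ribosomal protein genes. Omitting libraries in turn gave log2 fold changes of -0.12 to 0.011 for RPL38, -0.13 to 0.028 for RPL15, -0.11 to 0.059 for RPL7A, -0.13 to 0.081 for RPL10A, -0.011 to 0.086 for RPS27A, -0.048 to 0.049 for RPS13, -0.10 to 0.20 for RPL9, -0.057 to 0.20 for RPLP0, -0.091 to 0.12 for RPLP1 and -0.027 to 0.13 for RPLP2. The cause was not tested. In simulated counts over all tested genes, few changes of 1.25-fold and a minority of those of 1.5-fold were recovered.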
